A study of Rattus norvegicus with 6 samples.

Results

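Chromosome 9 of the rat was examined as a distant partner of a gene promoter that lies on chromosome 13. Its members are all EcoRI fragments of chromosome 9 in genome build rn5, taken from the 6 deposited tables, and they number 34800 of the 759990 fragments outside chromosome 13. Each table held the same 34800 fragments, which cover the chromosome from its first base to 121549591. The contacts were mapped by 4C-seq, in which fixed chromatin is cut (here with EcoRI) and its ends are ligated, after which whatever was ligated to a chosen viewpoint is amplified and sequenced. The cells were cardiac endothelial cells of 2 rat strains, with 3 libraries each. The SS13BN group (SS-13BN/Mcwi) carries chromosome 13 of the Brown Norway rat on the SS background, and the SS group (SS/JrHsdMcwi) is the Dahl salt-sensitive strain itself. All cells were at passage 2, came from pooled males and females, and were fixed with 2% formaldehyde for 10 min at room temperature. Chromosome 9 is of SS origin in both groups, so the strains differ in the origin of chromosome 13 and not of chromosome 9. Whether the 3 libraries of a strain were made from different animals or cultures is not in the labels, so p-values below measure the spread between libraries, which may be technical. Binomial p-values are the exception, since they measure counting error within a library.

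Chromosomes occupy separate territories in the interphase nucleus, and ligation between different chromosomes is rare and spread widely. Within this background, active chromatin tends to meet active chromatin and inactive chromatin tends to meet inactive chromatin. A promoter's contacts on other chromosomes therefore commonly appear as broad zones of higher or lower capture and seldom as sharp points.

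The deposited value of a fragment on chromosome 9 is a score. It sets how many fragments were captured from 250 fragments before to 250 after it against the captured share of the chromosome. A captured fragment is taken here as one that was read at least once. The scores could be solved for the captured or not captured state of every fragment, and those states rebuilt 100% of the chromosome 9 scores in each library. A fragment counts once however often it was read, so the values below are shares of fragments and not of reads.

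The promoter captured chromosome 9 about as often as it captured the other chromosomes. In SS13BN 1, SS13BN 2 and SS13BN 3, 3432, 6151 and 3234 fragments of chromosome 9 were captured, against 4312, 3598 and 4244 in SS 1, SS 2 and SS 3. The captured shares were 9.86% (95% Wilson interval 9.55% to 10.2%), 17.7% (17.3% to 18.1%) and 9.29% (8.99% to 9.60%) in the SS13BN libraries. They were 12.4% (12.05% to 12.7%), 10.3% (10.0% to 10.7%) and 12.2% (11.9% to 12.5%) in the SS libraries. These intervals cover counting error only. SS13BN 2 stood highest and the groups overlapped. The libraries differed in the same way elsewhere, since on the 19 remaining chromosomes (13 left out) they captured 9.92%, 17.4% and 8.74% in SS13BN and 12.3%, 9.98% and 11.9% in SS. The ratio of chromosome 9 to those chromosomes was 0.994, 1.02 and 1.06 in SS13BN and 1.004, 1.04 and 1.03 in SS.

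Over the 6 libraries the ratio averaged 1.02 ± 0.0249 (SD), which placed chromosome 9 as number 8 among 20 chromosomes. Its log2 ratio was 0.033 (SE 0.017, limma adjusted p = 0.0958 over 20 chromosomes), and 65.0% of the chromosomes passed adjusted p 0.05 in this fit. Without SS13BN 1, the library with the lowest ratio, the log2 ratio was 0.043 and passed, with a limma adjusted p of 0.0478. With chromosome X, the least captured chromosome, left out of the comparison, it was 0.0077. Capture of chromosome 9 therefore lay within a few percent of the level of the others, and its side of the threshold depended on 1 library.

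**Figure D1:**
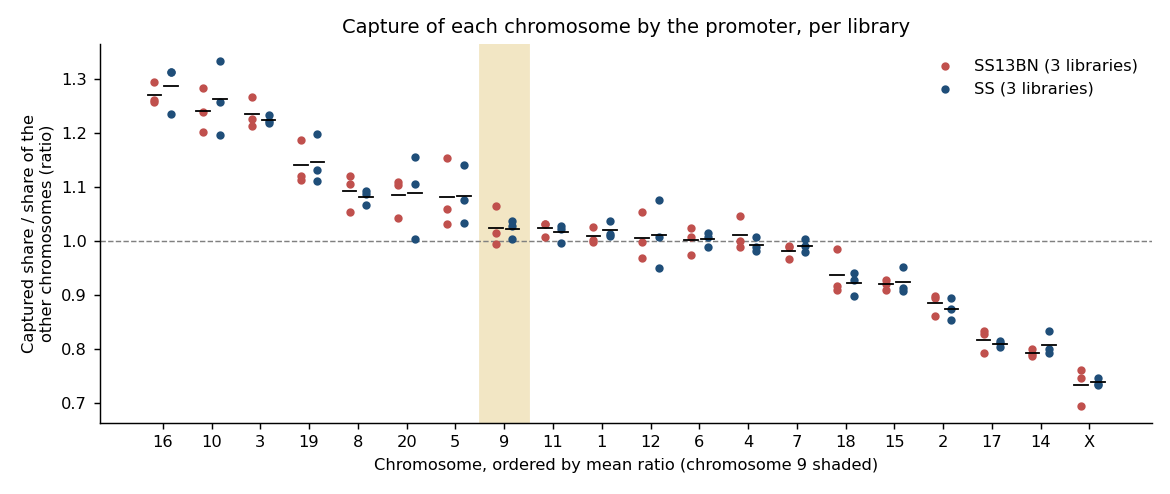
The captured share of each chromosome divided by the share of all other chromosomes but 13, for 20 chromosomes in order of their mean. Each point is a library, SS13BN left of SS, and black bars are means of 3 libraries. Chromosome 9 (shaded) sits between 0.994 and 1.06, in the middle of the order.

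Among chromosomes of like size, chromosome 9 was captured more than 2 and not detectably differently from the third. The 3 chromosomes with the nearest number of EcoRI fragments were 14, 15 and 8. Chromosome 9 was captured 1.27 times as often as chromosome 14, with log2 ratios of 0.29 to 0.41 in the 6 libraries, and 1.11 times as often as chromosome 15, with 0.096 to 0.20. Both differences had an exact two-sided sign-flip permutation p of 0.0313, the smallest that 6 libraries allow, and an adjusted p of 0.0469. Against chromosome 8 the ratio was 0.944 and the log2 ratio averaged -0.083 ± 0.058 (SD, n = 6). It was below 0 in all libraries but 1, with an exact permutation p of 0.0625.

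Capture alternated along chromosome 9 between broad regions above and below each library's level. In 10 Mb segments, 5 of 13 segments lay above the library's overall share and 7 below at limma adjusted p 0.05. Over all chromosomes but 13, 38.4% of the segments passed above and 42.0% below, so these counts are close to what other chromosomes show. The highest segment ran from 90000001 to 100000000. Its captured share was 1.59, 1.43 and 1.40 times the library's share in SS13BN and 1.41, 1.75 and 1.40 times in SS, a log2 level of 0.58 (SE 0.045, limma adjusted p = 6.57e-09). The next, from 40000001 to 50000000, reached 1.27, 1.32 and 1.32 times in SS13BN and 1.25, 1.27 and 1.31 times in SS. The libraries lay close together there, and the spread was the smallest of all segments, 1.29 ± 0.031 (SD, n = 6).

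The segment from 10000001 to 20000000 averaged 1.21 ± 0.060 times the library's share, that from 80000001 to 90000000 averaged 1.11 ± 0.069, and that from 110000001 to 120000000 averaged 1.08 ± 0.060 (SD, n = 6 each). All 6 libraries stood above 1 in each of these. Of the 5 high segments, the last was the one that did not pass once fragment length was allowed for, with a log2 level of 0.039 and a limma adjusted p of 0.332. Its median fragment was the longest of all segments, 2626.5 bp, against 2235 bp over the chromosome. The segment from 60000001 to 70000000 averaged 1.05 ± 0.058 (SD, n = 6) and did not pass.

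All 6 libraries stood below their own share in each of the 7 low segments. The lowest full segment was that from 100000001 to 110000000, next to the highest one. Its captured share was 0.751, 0.812 and 0.948 times the library's share in SS13BN and 0.830, 0.716 and 0.862 times in SS, a log2 level of -0.29 (SE 0.046, limma adjusted p = 2.28e-05). The segments that start at 1, 20000001, 30000001, 50000001 and 70000001 averaged between 0.859 and 0.917 times. The incomplete last segment, from 120000001 to 121549591, averaged 0.773 ± 0.160 (SD, n = 6) over 491 fragments. It ranged from 0.616 to 0.953 in SS13BN and from 0.643 to 0.958 in SS.

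**Figure D2:**
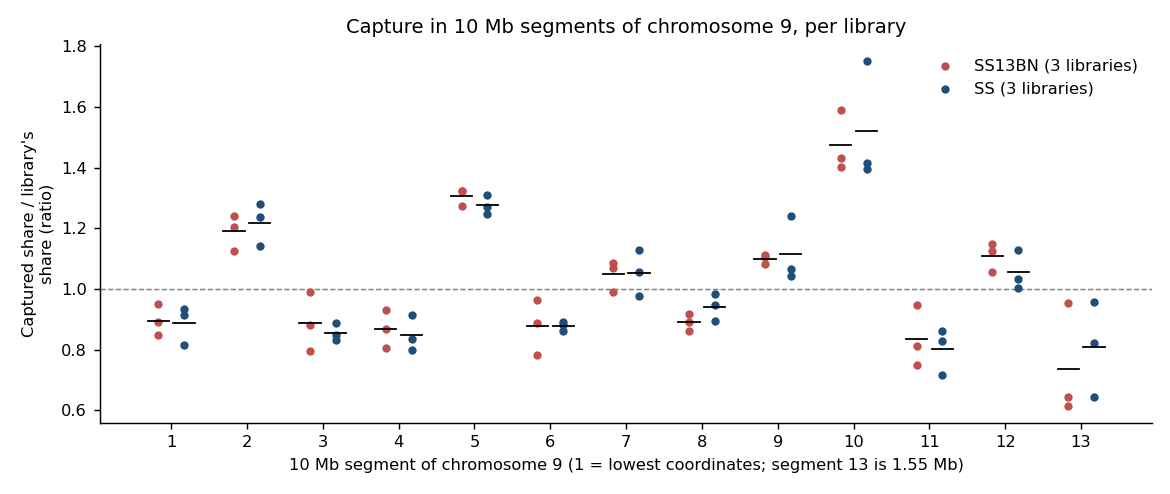
The captured share of each 10 Mb segment of chromosome 9 divided by the library's overall share, with 1 point per library (SS13BN left of SS) and means as black bars. Segment 10 averages 1.498 and segment 11, next to it, 0.820.

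At 500 kb, 60 of 243 windows lay above the library's share and 66 below at limma adjusted p 0.05, among windows with at least 20 fragments. In the whole fit 25.6% of windows passed above and 30.0% below, and chromosome 9, with 24.7% and 27.2%, did not stand out. The median log2 level was -0.051 on chromosome 9 and -0.032 over all windows. In 52 windows every library stood above its share, and in 51 every library stood below, where 23.0% and 24.7% of all windows did so. Windows were less uneven than on the median chromosome. The SD of the log2 level over windows was 0.68, 0.57 and 0.63 in SS13BN and 0.58, 0.63 and 0.58 in SS. It was below the median of the 19 other chromosomes in each of the 6 libraries, by 0.052 ± 0.031 (SD), with an exact sign-flip permutation p of 0.0313. That p-value reflects agreement among libraries and not how unusual the chromosome is. Among 20 chromosomes, from the most uneven down, it ranked 11, 14 and 13 in SS13BN and 15, 15 and 16 in SS.

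The strongest feature of chromosome 9 was a stretch of high capture that ended shortly after 100 Mb. All 11 consecutive windows from 95000001 to 100500000 lay above the library's share at limma adjusted p 0.05, the longest such run on the chromosome. The 1240 fragments of these windows are 3.56% of the chromosome and held 6.58% of its captures. They were captured 255, 383 and 196 times in SS13BN 1 to 3, which is 2.07, 1.77 and 1.803 times the library's share. In SS 1 to 3 they were captured 270, 269 and 269 times, which is 1.76, 2.17 and 1.82 times the share. The means were 1.88 ± 0.166 in SS13BN and 1.92 ± 0.220 in SS (SD, n = 3 each), and the groups overlapped (exact two-sided permutation p = 0.7).

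Within this stretch the window from 97000001 to 97500000 was the highest of the chromosome, and it ranked 25 among the 5311 windows of all chromosomes. Of its 122 fragments, 35, 51 and 24 were captured in SS13BN 1 to 3, against 30, 33 and 34 in SS 1 to 3. These are 2.89, 2.40 and 2.24 times the library's share in SS13BN and 1.99, 2.71 and 2.34 times in SS. SS13BN 1 stood highest and SS 1 lowest, and the groups overlapped. The log2 level was 1.21 (SE 0.12, limma adjusted p = 1.23e-06), or 1.14 with the expectation set by fragment length. In this window 11 fragments were captured in all 6 libraries.

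Of the 8 highest windows of the chromosome, 5 lie in the stretch, which was itself defined by high capture in the same libraries. After the window at 97000001, those starting at 98500001, 99500001, 96500001 and 98000001 averaged 2.10 ± 0.282, 1.99 ± 0.225, 1.98 ± 0.312 and 2.05 ± 0.716 times the library's share (SD, n = 6). The order is by the mean of log2 values. The last of these varied most, from 1.10 in SS13BN 3 to 3.12 in SS 2. Below the stretch, the window at 94500001 averaged 1.23 ± 0.207 (SD, n = 6) and did not pass (limma adjusted p = 0.0633). Within it the 100 kb bin from 94850001 averaged 0.371 ± 0.286 over 35 fragments (SD, n = 6). The next bin, from 94950001 to 95050000, crosses the start of the stretch at 95000001. It averaged 2.59 ± 0.417 over 35 fragments (SD, n = 6). No library was above 0.858 in the first of these bins and none was below 2.08 in the second. Such swings also occurred on both sides, so this step alone does not mark the lower edge. Below it the bin from 94550001 averaged 2.20 ± 0.63, and inside the stretch the bin from 95850001 averaged 0.32 ± 0.18 (SD, n = 6 each). These bins were chosen after their values were seen. At the upper edge the level of 500 kb windows dropped. The window at 100000001 still averaged 1.78 ± 0.344, the next, at 100500001, averaged 0.678 ± 0.102, and that at 101500001 averaged 0.426 ± 0.134 (SD, n = 6 each). In the window at 100500001 no library exceeded 0.765 times its share, whereas in the window before it none was below 1.26 times.

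In bins of 100 kb the stretch was not even. The highest bin, from 98950001 to 99050000, averaged 3.64 ± 0.62 times the library's share over 19 fragments and reached at least 3.10 times in each library. The bin from 96450001 to 96550000 averaged 3.32 ± 0.57 over 18 fragments. Between them lay bins near the library's level, such as 97050001 to 97150000 with 1.30 ± 0.70 over 23 fragments (SD, n = 6). A bin of low capture, from 95850001 to 95950000, averaged 0.32 ± 0.18 and stayed at or below 0.50 in every library. The bins hold few fragments, and the bins named here were chosen after their values were seen.

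**Figure D3:**
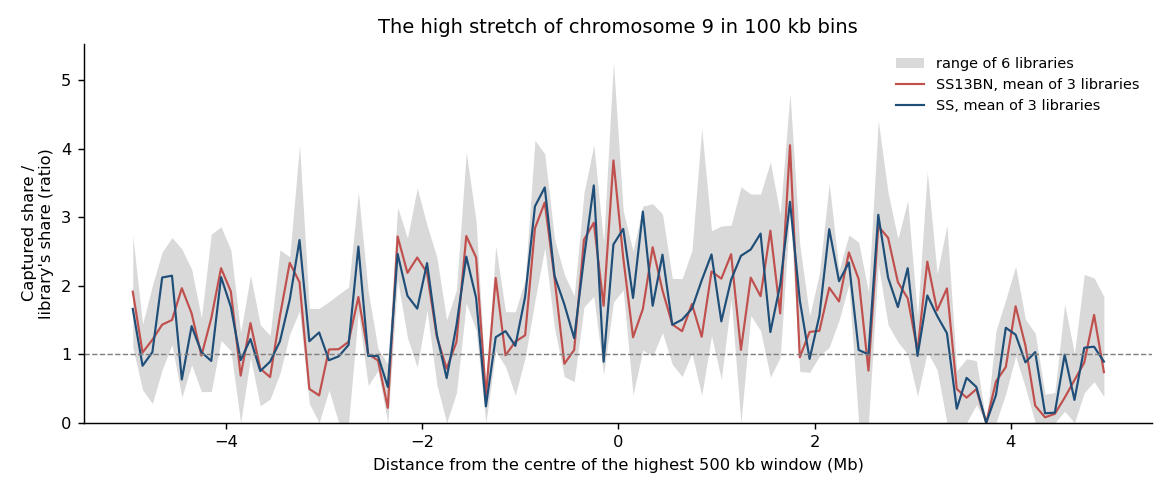
The captured share of 100 kb bins divided by the library's share, within 5 Mb of the centre of the highest 500 kb window of chromosome 9. Lines are means of 3 libraries, the grey band is the range of all 6, and the level drops on the right side beyond about 3 Mb, where the 500 kb window mean changes to 0.678.

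In the deposited scores most of the same region forms a single long domain, with shorter ones just below it. Here a domain is a run of neighbouring fragments whose score exceeded 2 in all 6 libraries. Chromosome 9 had 16 such runs, which hold 2393 fragments or 6.88% of the chromosome. On the other chromosomes 626 runs held 8.05% of the fragments. The longest run of chromosome 9, from 95326498 to 100045597, has 1065 fragments over 4719 kb and was number 6 in length among the 642 runs of all chromosomes. Its fragments were captured at 1.84 times the library's share in SS13BN and 1.93 times in SS. The highest score of the chromosome fell within this run in every library. It was 10.1, 10.5 and 6.53 in SS13BN 1 to 3 and 8.67, 12.9 and 8.18 in SS 1 to 3. In SS 2, which had the highest of all, the running window held 140 captured fragments where 51.8 would match the chromosome's share. The peak positions differed between libraries, from a fragment that starts at 96754703 in SS13BN 3 to one that starts at 99234157 in SS 1.

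A score looks 250 fragments to either side, so the edges of a domain are blurred. The run from 94816745 to 94977630, with 56 fragments, had scores over 2 throughout, while its own fragments were captured at only 0.419 ± 0.228 times the library's share (SD, n = 6). Of the 16 runs, 7 held fewer than 10 fragments. Runs less than 100 fragments apart form 5 stretches when joined, and this is the count used below. With single libraries left out, the number of unjoined runs was 12 to 23.

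The other 4 stretches lie far from the main one, and their means over all 6 libraries, 1.63 to 1.76 times the library's share, were below its mean of 1.86. That order did not hold in every library or strain. The stretch from 41427849 to 43221774 has 414 fragments. It was captured at 1.85, 1.77 and 1.90 times the library's share in SS13BN and at 1.68, 1.45 and 1.52 times in SS. Here every SS13BN library stood above every SS library, with an exact two-sided permutation p of 0.1, the smallest that 3 against 3 libraries allow, and 0.5 after adjustment over the 5 stretches. The stretch from 15860276 to 17170298 has 278 fragments, with 1.49, 1.67 and 1.76 times in SS13BN and 1.95, 1.94 and 1.76 times in SS (exact permutation p = 0.2). The stretch from 11708185 to 13247624 averaged 1.72 in SS13BN and 1.59 in SS over 343 fragments, and that from 80517081 to 82167811 averaged 1.63 in both over 401 fragments, with exact permutation p-values of 0.4 and 1. The main stretch, from 94816745 to 100045597 when joined, averaged 1.83 in SS13BN and 1.90 in SS over 1217 fragments (exact permutation p = 0.8).

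**Figure D4:**
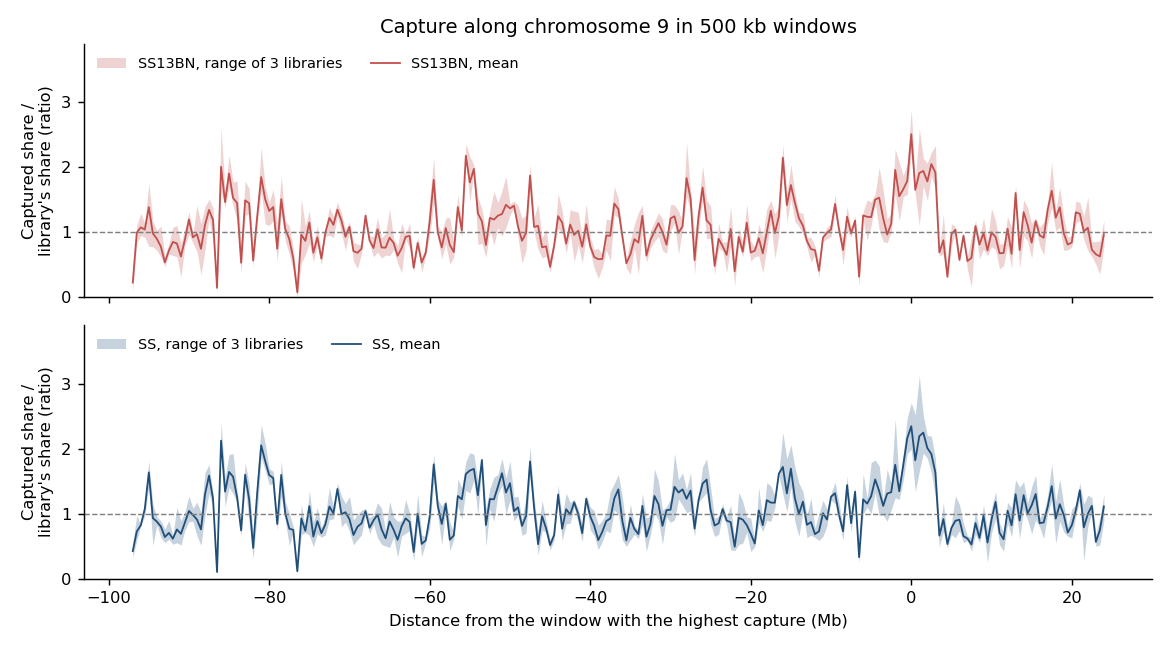
The captured share of 500 kb windows along chromosome 9 divided by the library's share, SS13BN above and SS below, with lines for means and bands for the range of 3 libraries. The horizontal axis is the distance from the highest window, where the 6 libraries lie between 1.99 and 2.89.

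Of the 3 remaining windows among the highest 8, the window from 11000001 to 11500000 lies beside one of the emptiest. In it 27, 30 and 16 of 104 fragments were captured in SS13BN 1 to 3, against 31, 21 and 24 in SS 1 to 3. The mean was 2.07 ± 0.376 times the library's share (SD, n = 6). The window just before it, from 10500001 to 11000000, had only 2, 6 and 4 of 227 fragments captured in SS13BN and 3, 3 and 2 in SS. Its median fragment was 361 bp long, and 94.3% of its fragments were captured in no library. With the expectation set by fragment length its log2 level was -2.30 in place of -2.70. The other 2 windows start at 16000001 and 81000001 and averaged 1.95 ± 0.323 and 1.94 ± 0.407 times (SD, n = 6).

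The lowest window of chromosome 9, from 20500001 to 21000000, was nearly empty in all libraries. Of its 147 fragments, 0, 4 and 1 were captured in SS13BN 1 to 3, against 2, 1 and 3 in SS 1 to 3. The count of 0 allows a share of up to 2.04% in SS13BN 1. Its log2 level was -2.84 (SE 0.17, limma adjusted p = 1.03e-08), and 97.3% of its fragments were captured in no library, against 62.4% over the chromosome. Its median fragment was 1832 bp, against 2235 bp over the chromosome, and the log2 level was -2.81 with the expectation set by fragment length. The reason for the low capture of this window was not tested.

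The other low windows were less extreme. The window from 90500001 to 91000000 averaged 0.326 ± 0.098 times the library's share, that from 1 to 500000 averaged 0.327 ± 0.153, and that from 101500001 to 102000000 averaged 0.426 ± 0.134 (SD, n = 6 each). The longest run of windows below the library's share at limma adjusted p 0.05 had 6 windows, from 3500001 to 6500000, and averaged 0.714 ± 0.064 times (SD, n = 6).

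Runs of low scores were short and few on chromosome 9. Scores were below -2 in all 6 libraries in 16 runs with 989 fragments, 2.84% of the chromosome. On the other chromosomes such runs held 8.46% of fragments, and chromosome 9 was number 19 of 20 in this share. Scores are set against each chromosome's own share, and this comparison was not tested. The 8 runs with the most fragments start at 0, 35683694, 121150996, 52069983, 19971628, 3878076, 101405398 and 35400053. Both the first and the last run touch the chromosome's ends, where the running window is cut off and was not rescaled, so that scores fall by construction. The last, from 121150996 to 121549591, was itself captured at 0.945 ± 0.270 times the library's share, while the first, from 0 to 793323, was captured at 0.391 ± 0.145 times (SD, n = 6 each). Among the inner runs, that from 52069983 to 52349381 was captured at 0.373 ± 0.126 times (SD, n = 6). That from 35683694 to 36091904 was captured at 0.963 ± 0.148 times even though its scores, which draw on 250 fragments to either side, were low. Without SS 1 the number of low runs was 31.

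Windows that passed in every library of a strain were few. A 500 kb window is called a contact window of a strain where each of its 3 libraries captured more fragments there than expected from that library's share (one-sided exact binomial test, adjusted p under 0.05). This test treats fragments as captured independently. Fragments next to a captured one were captured at 1.89 times the chromosome's share on average, so the binomial p-values can be too small. Chromosome 9 had 5 of 244 windows in SS13BN and 5 in SS, and 1 was shared. Over all chromosomes but 13, 1.58% of windows were contact windows in SS13BN, 1.86% in SS and 0.713% in both, against 2.05%, 2.05% and 0.410% on chromosome 9. The counts are too small to set chromosome 9 apart from this background.

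The shared contact window was that from 97000001 to 97500000, whose binomial adjusted p ran from 7.30e-08 in SS13BN 2 to 0.0121 in SS13BN 3. Those of SS13BN alone start at 41500001, 49500001, 81000001 and 95000001, and those of SS alone at 11000001, 96500001, 98500001 and 99000001. Of the 9 windows, 5 lie in the high stretch. The stretch was itself drawn from windows with high capture in the same libraries, so this overlap is not separate support. The number of windows that passed was highest in SS13BN 2 and lowest in SS13BN 3, the libraries with the most and the fewest captures. On chromosome 9, 14, 26 and 11 of 244 windows passed in SS13BN 1 to 3 and 22, 13 and 13 in SS 1 to 3. Among the 5332 windows of all chromosomes but 13, the numbers were 446, 645 and 174 in SS13BN and 472, 365 and 286 in SS. Leaving out a library loosens the rule from 3 libraries to 2. Chromosome 9 then had 10 contact windows in SS13BN without SS13BN 1, 11 without SS13BN 3, 9 in SS without SS 2 and 8 without SS 3. The share over all chromosomes is not given for these 4 counts, so they describe chromosome 9 alone.

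The contact windows of 1 strain also lay above the library's share, on average, in the other strain. The window at 96500001 held 18, 29 and 19 of 105 captured fragments in SS13BN and 25, 26 and 26 in SS. Its binomial adjusted p was 0.127, 0.0512 and 0.0538 in the SS13BN libraries. The window at 49500001 held 32, 47 and 26 of 158 in SS13BN and 35, 32 and 30 in SS, and it missed the threshold only in SS 3, with a binomial adjusted p of 0.0859. The window at 41500001 was the exception, in that its groups did not overlap. It held 29, 51 and 29 of 140 in SS13BN, or 2.09, 2.09 and 2.36 times the library's share, and 29, 19 and 30 in SS, or 1.68, 1.36 and 1.802 times. Its log2 difference (SS13BN minus SS) was 0.43 (SE 0.20, limma adjusted p = 0.999).

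The origin of chromosome 13 made no detectable difference to the capture of chromosome 9 as a whole. Chromosome 9 made up 4.68% ± 0.155 of all captured fragments outside chromosome 13 in SS13BN and 4.68% ± 0.0735 in SS (SD, n = 3 each). The log2 difference (SS13BN minus SS) of its ratio to the other chromosomes was 0.0022 (SE 0.034, limma adjusted p = 0.949), with a 95% half-width of 0.071. The sign rested on single libraries, with -0.011 without SS 1 and -0.025 without SS13BN 3. None of the 20 chromosomes passed the same test (0%).

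Single windows gave no call between the strains. In limma fitted over 5296 windows, 0 of 243 windows of chromosome 9 passed adjusted p 0.05, as did 0% of all windows. An unadjusted limma p under 0.05 was found in 11 windows, or 4.53%, against 3.02% of all windows. The groups did not overlap in 22 windows, 11 of them higher in SS13BN, against 7.80% of all windows, and 22 of 243 is 9.05%. The median absolute log2 difference was 0.17, and the median 95% half-width was 0.51. This half-width is that of a single window, before adjustment over all windows. In simulated libraries with counting error alone, 200 of 5311 windows were changed between strains. The same test recovered 0% of them at 1.5-fold, 35% at 2-fold and 82.5% at 3-fold, so smaller differences would be missed.

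Among windows higher in SS13BN, the smallest p belonged to that from 50500001 to 51000000. Captured fragments numbered 23, 21 and 16 of 162 in SS13BN, against 10, 6 and 14 in SS, which is 1.43, 0.744 and 1.13 times the library's share in SS13BN and 0.50, 0.371 and 0.727 times in SS. All SS13BN libraries stood above all SS libraries, by a narrow gap between SS13BN 2 and SS 3. By limma the log2 difference was 0.98 (SE 0.29, adjusted p = 0.999). The window from 69000001 to 69500000 held 19, 34 and 26 of 124 in SS13BN and 20, 17 and 15 in SS, a log2 difference of 0.53 (SE 0.22). The window from 53500001 to 54000000 held 15, 30 and 18 of 153 in SS13BN and 18, 9 and 14 in SS, a log2 difference of 0.56 (SE 0.25). Limma's adjusted p was 0.999 for both.

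Among windows lower in SS13BN, the smallest p belonged to that from 43500001 to 44000000. It held 13, 22 and 7 of 96 captured fragments in SS13BN, against 22, 18 and 20 in SS, or 1.37, 1.32 and 0.832 times the library's share in SS13BN and 1.86, 1.88 and 1.75 times in SS. By limma the log2 difference was -0.63 (SE 0.25, adjusted p = 0.999). This window lies just above the stretch from 41427849 to 43221774, in which SS13BN was the higher. The window from 119500001 to 120000000 differed by -0.58 (SE 0.24) and that from 72500001 to 73000000 by -0.71 (SE 0.30), with the same adjusted p.

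**Figure D5:**
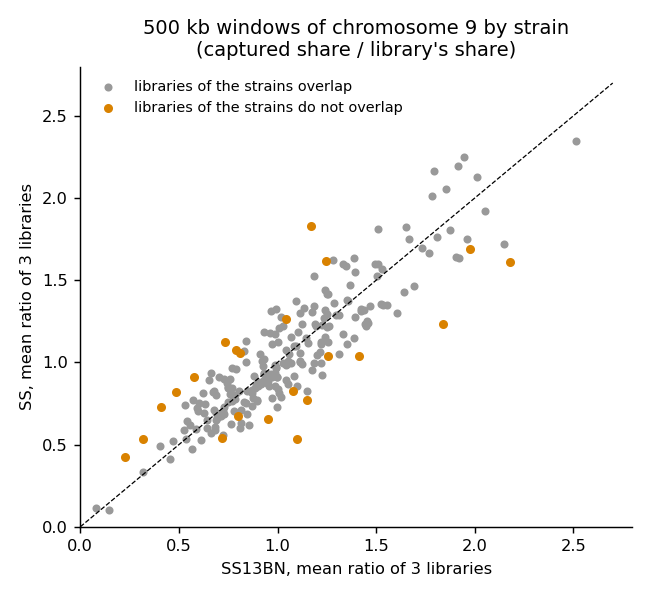
The mean ratio of captured share to library's share in SS13BN (horizontal) and SS (vertical) for 243 windows of chromosome 9, with the line of equality dashed. The 22 windows whose libraries do not overlap between strains (orange) lie on both sides of the line, 11 higher in SS13BN.

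Fragments captured in every library were a small share of the chromosome but outnumbered those captured in exactly 5. Of the 34800 fragments, 21731 (62.4%) were captured in no library, 7174 (20.6%) in 1, 438 (1.26%) in 5 and 557 (1.60%) in all 6. On the other chromosomes these shares were 63.0%, 20.3%, 1.15% and 1.48%. Whether libraries shared more fragments than independent capture would give was not tested. Fragments captured in all 6 libraries had a median length of 4371 bp, against 1894 bp for those never captured. Of the 557, 106 (19.03%) lay in the 5 high-score stretches, which hold 7.62% of the fragments. The stretches were defined by high capture in all 6 libraries, so an excess there follows from the definition. The 557 fragments formed 503 runs, of which 46 had 2 fragments and 4 had 3, and none was longer. Whether they adjoined more often than random placement would give was not tested. The runs of 3 lie at 10382569 to 10388387, 11297375 to 11307393, 96530343 to 96549305 and 97024536 to 97038094. Those at 96530343 and 97024536 lie in the main stretch.

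Capture of a fragment went with capture of the fragment next to it. Next to a captured fragment, the share captured was 1.502 to 2.27 times the chromosome's share in the 6 libraries, with a mean of 1.89 ± 0.262 (SD). At a distance of 2 fragments the mean was 1.19 ± 0.029, at 20 fragments 1.11 ± 0.056, at 100 fragments 1.06 ± 0.026 and at 500 fragments 0.998 ± 0.029. The sharp step between neighbours and the next fragment was seen in each library. By 500 fragments no excess was left on average, a distance shorter than the main stretch with its 1217 fragments. Over windows of 500 kb, the mean log2 level of adjoining windows correlated at 0.31, that of windows 2 Mb apart at 0.13 and that of windows 5 Mb apart at 0.018, as a description over 233 to 242 pairs of windows.

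Longer fragments were captured more often. Fragments were put in 5 length classes of equal size. In the shortest, up to 572 bp, 6.66% ± 1.549 of the chromosome 9 fragments were captured, and in the longest, from 5539 bp, 17.2% ± 3.91 (SD, n = 6 each). In those classes the other chromosomes had 6.19% ± 1.34 and 16.7% ± 4.00. Over 243 windows, the log2 level and the median fragment length had a Spearman correlation of 0.50, and of 0.39 after the expectation was set by fragment length. Windows with longer fragments hold fewer of them, and both measures come from the same fragments. The first 3 Mb were captured at 0.976 ± 0.080 times the library's share and the last 3 Mb at 0.860 ± 0.152 times (SD, n = 6 each).

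Libraries ranked the windows of chromosome 9 in a like order whatever their strain. Spearman correlations over 243 windows ranged from 0.594 to 0.742 among the 15 pairs of libraries. They averaged 0.666 ± 0.050 in the 6 pairs within a strain, 0.699 ± 0.046 in the 3 pairs with the same replicate number and 0.677 ± 0.055 in the other 6 (SD). These correlations describe windows of the same chromosome, which share fragment length and number and are not independent.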

How the data were processed

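Libraries were 3 of SS13BN and 3 of SS. The authors deposited 1 score per EcoRI fragment. The submitters' processing notes name rn5 and CASAVA 1.8. Aligner, read filter and scoring program were not given in the sources used here. Off chromosome 13 each score equals the captured number within 250 fragments to either side, minus its binomial expectation from the chromosome's captured share, over the binomial SD. Scores were solved for captured states, and all scores were rebuilt within 1e-06. Captured fragments were counted in windows by fragment midpoint, with expected numbers from each library's share. Coordinates are as deposited and may lie 1 base from a browser's. Tests used limma 3.58.1 in R 4.3.3 on log2((captured + 1)/(expected + 1)), or, between strains, on log2(scaled captured + 1) with an intensity trend and a minimum mean of 1. Benjamini-Hochberg adjustment ran over all windows, segments or chromosomes but 13. Python 3.11.15 ran scipy 1.17.1, pandas 2.3.3, matplotlib 3.10.9 and numpy 2.4.6, and scripts were tested on simulated data. Named windows are the 8 highest and 5 lowest, the contact windows and the 3 smallest p-values in each direction between strains. Of low-score runs, the 8 with the most fragments are named. Of high-score runs, the longest, a shorter one beside it and the 5 joined stretches are named. The members and lists were chosen with earlier results of these data known. Chromosome 13 was not analysed here. Its deposited scores were all 0 in SS 3 and SS13BN 3, and nearly all differed from 0 in the remaining libraries.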

Additional observations from a re-analysis of the deposited data

How the results depend on the processing

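Capture of chromosome 9 against the others (log2) was 0.019 to 0.043 with single libraries left out. Between strains it was -0.025 to 0.023. Against chromosome 14 it was 0.33 to 0.35 and against chromosome 15 0.13 to 0.15, but 5 libraries cannot pass, since their smallest exact permutation p is 0.0625. The same holds for the window spread, -0.061 to -0.044. Finer and coarser units changed counts: 9 segments above and 12 below at 5 Mb, and 35 windows above and 35 below at 1 Mb. Shares over all chromosomes are not given for these counts or for the contact windows below, which describe chromosome 9 alone. Contact windows were the least stable. With expectations by fragment length SS had 3. At adjusted p under 0.01 there were 1 in SS13BN, 1 in SS and 0 shared. At 250 kb there were 2, 0 and 0, and at 1 Mb SS13BN had 11 and 4 were shared. Leaving out libraries gave 5 to 11 in SS13BN, 5 to 9 in SS and 1 to 3 shared. Joining runs of scores left 5 high and 10 low. Beyond a score of 3 there were 3 low runs, and single libraries left out gave 16 to 31. An alternative chosen after seeing the data, without the first and last 250 fragments, left 14 low runs. With replicate number as a block (replicate block), 60 windows lay above and 71 below, and 0 differed between strains, by an unadjusted limma p 12. Deviations of same-numbered libraries correlated at 0.089, 0.13 and 0.083, not all over 0.1, and each library correlated best with its own number. Other alternatives kept direction and side of the threshold. Depth limits single windows, whose libraries captured few fragments.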
